A study of Mus musculus with 18 samples.

Results

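The 10 genes described here act in the turnover and export of cholesterol in the brain: Cyp46a1, Ch25h, Soat1, Npc1, Npc2, Abca1, Abcg1, Nr1h2, Nr1h3 and Lcat. They were chosen by gene symbol for that role. No measured value enters the rule, although earlier results of these data were known when the set was made. All 10 of them were found among the 55487 genes of the count table and were among the 17414 genes tested. Frontal cortical RNA came from 18 mice at an age of 9 to 10 months, and each of 3 genotypes had 3 females and 3 males. APP/PS1 mice carry mutant human amyloid precursor protein and presenilin 1 transgenes. APP/PS1/FTnKO mice carry the same transgenes and have lost the farnesyltransferase beta subunit, encoded by Fntb, from forebrain neurons after birth, because a CaMKIIα-driven Cre recombinase excises floxed Fntb there. By the study's methods the APP/PS1 mice carry the floxed Fntb alleles without Cre, and so do the WT mice, while the record of the data names C57BL/6J as the WT strain. Which background the WT group has is therefore unsettled. Glia and other cells keep Fntb, and the counts cover RNA of all cells in the piece of cortex.

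Cholesterol does not cross the blood-brain barrier, and the brain makes its own. Neurons remove the surplus mainly through the enzyme that Cyp46a1 encodes, which turns cholesterol into an oxysterol able to leave the brain. Cholesterol taken up in lipoproteins leaves the lysosome through the paired proteins of Npc2 and Npc1, is stored as ester by the enzyme of Soat1, and is handed to apolipoproteins by the transporters Abca1 and Abcg1. Lcat encodes the enzyme that esterifies cholesterol on those lipoproteins, and Nr1h2 and Nr1h3 encode the liver X receptors, which sense oxysterols and switch on efflux genes. Ch25h encodes the enzyme that makes another such oxysterol, and it is known as a gene that immune cells induce.

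Ch25h and Npc2 were the members that passed the test in APP/PS1 against WT mice, and Cyp46a1 is the neuronal gene of the set, so the windows just before these 3 genes are shown. They run from 250 to 51 bases before the start of transcription in RefSeq (GRCm38.p6), 5′ to 3′ on the strand of the gene. Capitals mark matches on either strand to a TATA box (letters TATAAA), a GC box (letters GGGCGG) or a CCAAT box, which is named by its letters, and a match on the opposite strand appears as its reverse complement. None of the marked matches overlap. The windows are chr19:34475199-34475398 on the minus strand for Ch25h, chr12:84773163-84773362 on the minus strand for Npc2 and chr12:108334066-108334265 on the plus strand for Cyp46a1.
Ch25h: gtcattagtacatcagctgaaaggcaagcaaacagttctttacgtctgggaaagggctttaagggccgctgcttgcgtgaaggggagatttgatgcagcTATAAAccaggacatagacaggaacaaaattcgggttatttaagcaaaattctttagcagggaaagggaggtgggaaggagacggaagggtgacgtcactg
Npc2: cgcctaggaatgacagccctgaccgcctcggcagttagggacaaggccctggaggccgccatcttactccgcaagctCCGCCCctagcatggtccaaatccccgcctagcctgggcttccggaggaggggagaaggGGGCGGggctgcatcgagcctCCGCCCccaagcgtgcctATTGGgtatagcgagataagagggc
Cyp46a1: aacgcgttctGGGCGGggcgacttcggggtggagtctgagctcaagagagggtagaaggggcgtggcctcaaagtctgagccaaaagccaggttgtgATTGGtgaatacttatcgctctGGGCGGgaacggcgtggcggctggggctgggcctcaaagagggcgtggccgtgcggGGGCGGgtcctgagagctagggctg
The Ch25h window held 1 match to the TATA box letters, 151 bases before the start, and a GC content of 47.0% with 6 CpG dinucleotides. Bases nearer to the start than 51 were not searched, so a TATA box there would be missed in any gene. The Npc2 window held 3 GC boxes and 1 CCAAT box, with 65.5% GC and 13 CpG, and that of Cyp46a1 also held 3 GC boxes and 1 CCAAT box, with 64.5% GC and 15 CpG. Over the 32851 RefSeq windows of the same 200 bases the median GC content was 51.5% and the median CpG number was 4. A TATA box was in 9.14%, a CCAAT box in 28.4% and a GC box in 24.6% of them. RefSeq windows were matched for 8 of the 10 members, leaving Npc1 and Abcg1. The liver X receptor element (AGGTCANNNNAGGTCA), which was in 0.0122% of all windows, the sterol regulatory element (TCACCCCAC, 0.371%), the GAS motif (TTCCNNNGAA, 2.65%), the AP-1 motif (TGANTCA, 5.57%) and the PU.1 motif (GAGGAAGT, 1.75%) matched in none of the 8. The E-box (CACGTG, 4.34%) matched in that of Abca1. These are matches of letters in a short window and were not tested as binding sites. The exact liver X receptor element was in only 4 of the 32851 windows, so its absence from the 8 says little. Looser forms of it were not searched.

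WT mouse 19622, a female, stood apart from the other mice and is described separately at the end, so that the results below rest on 17 mice with 5 in the WT group. Total counts of the 17 mice and of 19622 lay between 15925432 and 21030935. Fntb, the deleted gene, was at 14.1 to 32.2 CPM (normalized CPM, the count relative to the TMM-scaled library total) in the 5 WT mice. The 6 APP/PS1 mice had 14.2 to 32.1 and the 6 APP/PS1/FTnKO mice 7.84 to 14.7. Its log2 fold change in APP/PS1/FTnKO against APP/PS1 mice was -0.77 (SE 0.26), with an edgeR quasi-likelihood false discovery rate (FDR) of 0.251, and the groups overlapped. The exons of Fntb overlap those of Churc1. Unless another tool, setting or number of mice is named, fold changes below come from edgeR's quasi-likelihood test on the 17 mice with sex as a term. Their FDR is adjusted over all 17414 tested genes at a threshold of 0.05. Other fits were adjusted over the genes that they tested, 17285 in the edgeR fit of 18 mice. Since bulk tissue was sequenced, fewer cells of a type and less RNA per cell cannot be told apart. The labels do not say how mice relate to litters.

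Per kilobase of annotated exon, the 10 genes spanned a wide range of levels in the 5 WT mice. Cyp46a1 was highest, at 57.8 ± 3.22 CPM per kb (SD, n = 5), above every other member in each of the 5 mice. It was followed by Nr1h2 (16 ± 0.512), Lcat (13.4 ± 1.98) and Abcg1 (11.7 ± 0.756), whose neighbours overlapped in range, then by Npc2 (9.66 ± 0.205) and Npc1 (7.53 ± 0.661). Abca1 (5.32 ± 0.609) and Soat1 (3.92 ± 0.533) overlapped, while Nr1h3 (1.27 ± 0.200) and Ch25h (0.261 ± 0.138) were lowest and did not overlap with each other or with Soat1. The exon length counts every annotated exon, which lowers the value of a gene with long rare isoforms.

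**Figure D1:**
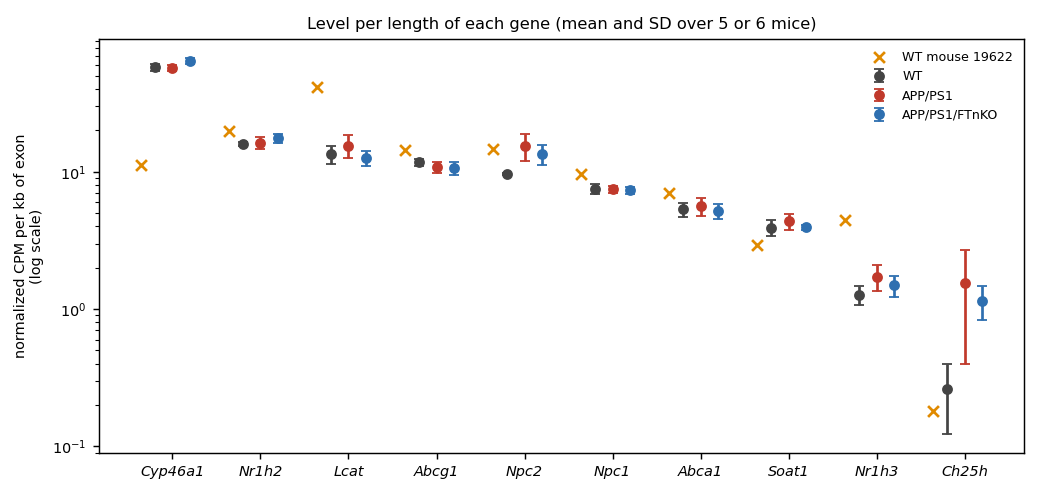
Level of each gene in normalized CPM per kb of exon (log scale), mean and SD over 5 WT, 6 APP/PS1 and 6 APP/PS1/FTnKO mice, with WT mouse 19622 as a cross. Cyp46a1 had the highest level in every genotype, and Ch25h the lowest in WT mice, at 0.261 CPM per kb.

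Against WT mice, APP/PS1 mice had higher Ch25h and Npc2, while the other 8 members did not pass the test. That is 2 of 10 members called, both higher, against 1.50% of all tested genes called in either direction and 1.32% called higher. DESeq2, which called 2.69% of its genes, called the same 2 members. The median log2 fold change of the 10 members was 0.11 and that of all tested genes was -0.00233. Ch25h had 3 to 11 counts in WT mice and passed the filter on low counts through the APP/PS1 and APP/PS1/FTnKO mice, so that the members' count is a description and no support for the set.

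**Figure D2:**
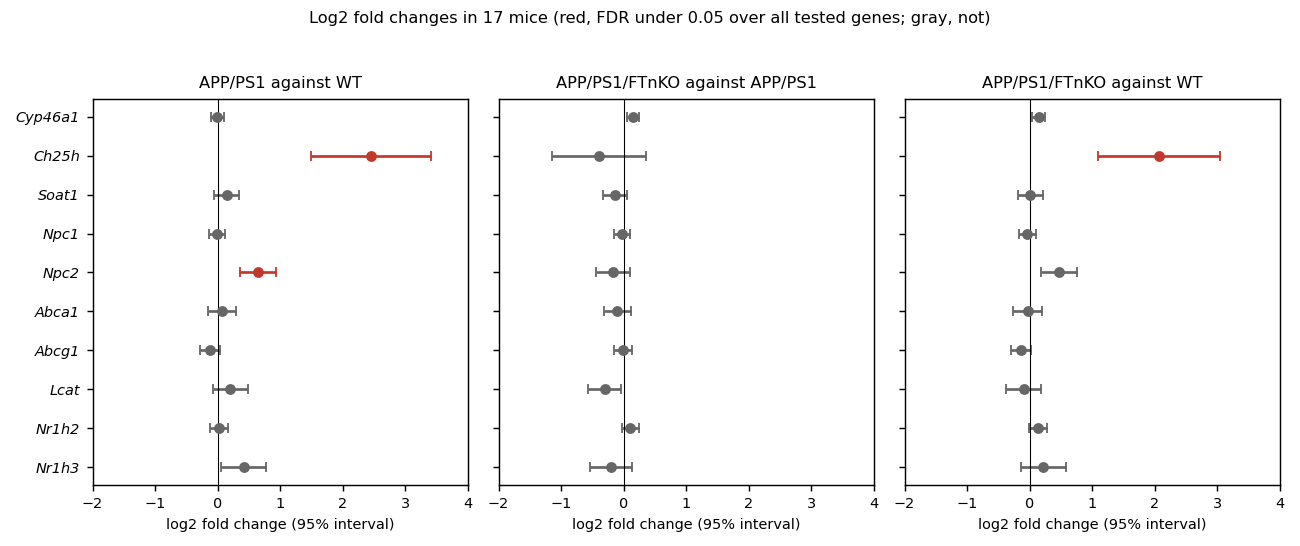
Log2 fold change of each gene with its 95% interval in 17 mice, in the 3 comparisons of genotypes. Ch25h and Npc2 passed the test in APP/PS1 against WT, at 2.46 and 0.64, and Ch25h in APP/PS1/FTnKO against WT, at 2.07. No member passed it in APP/PS1/FTnKO against APP/PS1.

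Ch25h is an intronless gene on chr19:34473778-34475164 (GRCm38), and its exon overlaps the antisense gene Gm26902, so that reads of the pair cannot be told apart if the counting ignored strand, a setting not given in the sources used here. In the WT females it was at 0.296 and 0.389 CPM and in the WT males at 0.671, 0.300 and 0.155. The APP/PS1 females were at 1.99, 1.36 and 5.15 and the males at 2.36, 1.35 and 0.647. In APP/PS1/FTnKO the females were at 2.30, 1.41 and 1.53 and the males at 1.85, 1.43 and 1.02. Of the APP/PS1 mice 5 of 6 lay above every WT mouse, the exception being male 19744, which lay just below WT male 19101. All 6 APP/PS1/FTnKO mice lay above every WT mouse, a separation that 2.75% of all tested genes showed in that direction.

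Ch25h rose 5.51-fold in APP/PS1 against WT mice (log2 fold change 2.46, SE 0.46, 95% interval 1.5 to 3.42, FDR 0.00698). It rose 4.19-fold in APP/PS1/FTnKO against WT mice (log2 fold change 2.07, SE 0.46, FDR 0.0205), the same WT mice serving in both comparisons. Set against APP/PS1 mice, those with the neuronal knockout had a log2 fold change of -0.39 (95% interval -1.14 to 0.36, FDR 0.729), and without APP/PS1 female 19723, the highest mouse, it was 0.025. These values rest on summed counts of 32 (5 WT mice), 225 (6 APP/PS1 mice) and 182 (6 APP/PS1/FTnKO mice). With the RNA integrity number (RIN) of each mouse as a covariate, the log2 fold change in APP/PS1 against WT mice was 2.11 and its FDR 0.0784. WT mice had a RIN of 8.5 to 8.8, APP/PS1 mice one of 7.7 to 8.7 and APP/PS1/FTnKO mice one of 7.6 to 8.7. The APP/PS1/FTnKO against WT call of Ch25h was lost, with log2 fold changes of 1.91 to 2.06, when WT mouse 18944, 19053, 19718 or 19721 or APP/PS1/FTnKO mouse 16974 was left out.

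Npc2 lies on chr12:84754562-84773152 (minus strand) and encodes the small soluble protein that takes cholesterol from lipoproteins inside the lysosome. Its level in the WT females was 52.9 and 51.4 CPM and in the WT males 54.3, 52.1 and 51.9. The APP/PS1 females were at 81.4, 95.6 and 95.5 and the males at 102, 68.3 and 54.8. The APP/PS1/FTnKO females were at 82.7, 75.4 and 67.2 and the males at 88.7, 54.0 and 72.9. The coefficient of variation was 2.13% among the 5 WT mice, 22.2% among the APP/PS1 mice and 16.6% among those of APP/PS1/FTnKO genotype. All 6 APP/PS1 mice were above every WT mouse, the lowest by a narrow margin, and 1.71% of all tested genes showed such a separation in that direction. Of the APP/PS1/FTnKO mice 5 of 6 were above every WT mouse.

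Npc2 rose 1.56-fold in APP/PS1 against WT mice (log2 fold change 0.64, SE 0.14, 95% interval 0.36 to 0.93, FDR 0.0213). Its log2 fold change in APP/PS1/FTnKO against WT mice was 0.47 (SE 0.14, FDR 0.0621), and in APP/PS1/FTnKO against APP/PS1 mice it was -0.17 (95% interval -0.44 to 0.10, FDR 0.659). DESeq2, which called 8.59% of its genes in APP/PS1/FTnKO against WT mice, called Npc2 there (adjusted p 0.0149), where edgeR called 3.87% of genes in either direction and 2.22% higher. With RIN as a covariate the log2 fold change in APP/PS1 against WT mice was 0.36 with an FDR of 0.207. The call in APP/PS1 against WT mice was also lost, at log2 fold changes of 0.54 to 0.63, without WT mouse 18944 or 19053 or without APP/PS1 mouse 19554, 19723 or 16975.

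The markers of activated glia were also higher in the transgenic mice. The summed level of 8 markers of plaque-associated microglia spanned 78.1 to 86.5 CPM (WT), 123 to 299 (APP/PS1) and 97.0 to 239 (APP/PS1/FTnKO). Of these markers 7 of 8 were called higher against WT in each transgenic genotype. None was at 0 in all 17 mice, but 2 were at 0 in some WT mice. The 6 markers of reactive astrocytes summed to 183 to 253 (WT), 476 to 1894 (APP/PS1) and 440 to 1551 (APP/PS1/FTnKO), with 4 of 6 called higher in each transgenic genotype. The 8 markers of homeostatic microglia summed to 285 to 339 (WT), 337 to 510 (APP/PS1) and 264 to 411 (APP/PS1/FTnKO), with 3 of 8 called higher in APP/PS1 mice. The 6 markers of perivascular macrophages summed to 6.56 to 8.50 (WT), 6.00 to 10.5 (APP/PS1) and 5.11 to 10.2 (APP/PS1/FTnKO), with 0 called by edgeR or DESeq2 and 0 at an unadjusted edgeR p under 0.05 in the genotype comparisons. Other markers also moved in APP/PS1 against WT mice. The log2 fold change was above 0 for 8 of 8 markers of astrocytes (median 0.129), 4 of 4 of oligodendrocyte precursors (0.092) and 4 of 4 tested of the choroid plexus (0.585). It was below 0 for 8 of 8 of excitatory neurons (-0.120), 8 of 8 of interneurons (-0.160) and 5 of 5 of blood (-1.64). Of these only Aqp4 was called, by DESeq2. The part of any of these cells in the rise of Ch25h and Npc2 was not tested.

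**Figure D3:**
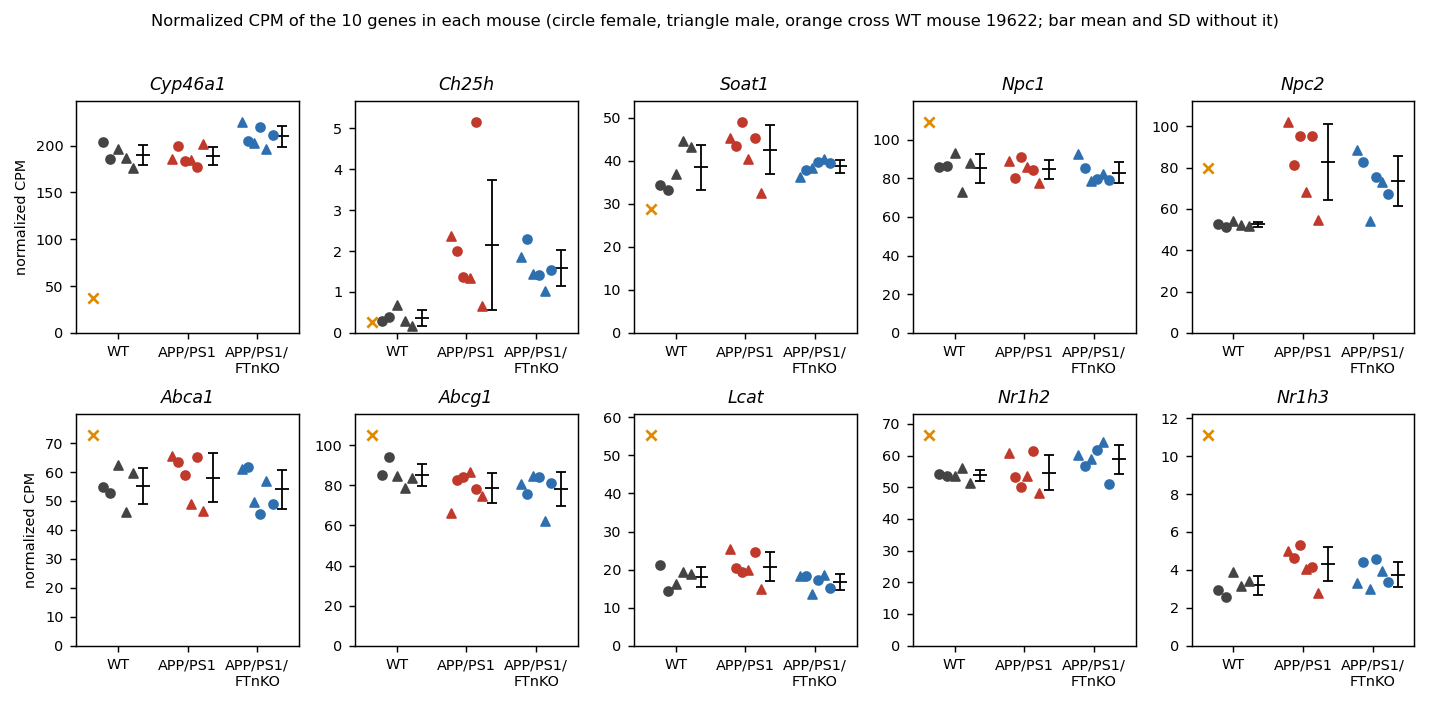
Normalized CPM of the 10 genes in each mouse (circles females, triangles males), with mean and SD over the 5 WT, 6 APP/PS1 and 6 APP/PS1/FTnKO mice and WT mouse 19622 as a cross. Ch25h lay between 0.155 and 0.671 CPM in the 5 WT mice and between 0.647 and 5.15 in APP/PS1 mice, and the Npc2 values of the 5 WT mice lie close together below those of the APP/PS1 mice.

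Cyp46a1, on chr12:108334381-108362234 (plus strand), encodes the neuronal cholesterol 24-hydroxylase. The WT females were at 204 and 186 CPM and the males at 197, 187 and 176. The APP/PS1 females were at 200, 184 and 177 and the males at 186, 185 and 202. The APP/PS1/FTnKO females were at 205, 220 and 211 and the males at 225, 203 and 196. WT and APP/PS1 mice covered the same range, and 4 of 6 APP/PS1/FTnKO mice lay above every WT mouse, but the groups overlapped. The log2 fold change was -0.0077 in APP/PS1 against WT mice (95% interval -0.11 to 0.10, FDR 0.965). It was 0.15 in APP/PS1/FTnKO against APP/PS1 mice (SE 0.048, 95% interval 0.050 to 0.25, unadjusted p 0.00579, FDR 0.220) and 0.14 against WT mice (FDR 0.111). It did not pass the test in either. The 8 markers of excitatory neurons summed to 2107 to 2751 CPM (WT), 1902 to 2662 (APP/PS1) and 1672 to 2100 (APP/PS1/FTnKO), with 1 of 8, Slc17a7, called lower in APP/PS1/FTnKO against WT mice. Their part in the values of Cyp46a1 was not tested.

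Against APP/PS1 mice, APP/PS1/FTnKO mice had 0 of 10 members called by edgeR, with 0.327% of all genes called. DESeq2, which called 1.70% of its genes, called 0 of the 9 members to which it gave an adjusted p, and Ch25h had none. At an unadjusted p under 0.05, which 11.5% of all genes had, edgeR gave 2 members, Cyp46a1 with the higher level in APP/PS1/FTnKO mice and Lcat with the lower. The median log2 fold change of the 10 members was -0.12, and 8 of 10 were below 0. Over all genes the median was -0.00161, and 8797 of 17414 were below 0. In the same comparison the log2 fold change was below 0 for 8 of 8 markers of plaque-associated microglia (median -0.28), for 8 of 8 of homeostatic microglia (-0.23), for 5 of 6 of reactive astrocytes (-0.21) for 4 of 4 of oligodendrocyte precursors (-0.099) and for 3 of 4 tested markers of the choroid plexus (-1.03), of which 3 had an unadjusted p under 0.05. It was above 0 for 5 of 5 blood markers (0.37) and for 7 of 8 of interneurons (0.036). edgeR and DESeq2 called 0 genes of these lists. Their part in the members' values was not tested. The interval of the difference was narrow for several genes. It ran from -0.16 to 0.10 for Npc1, from -0.16 to 0.14 for Abcg1 and from -0.32 to 0.11 for Abca1.

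Npc1, which encodes the membrane protein that receives cholesterol from Npc2, was at 86.0, 86.6, 93.0, 72.8 and 87.7 CPM in the WT mice. The APP/PS1 mice lay between 77.8 and 91.1 and the APP/PS1/FTnKO mice between 78.5 and 92.8. The 3 groups covered the same range, and its log2 fold changes lay between -0.038 and -0.0082. Its exons overlap those of Rmc1 and Gm15956 on the opposite strand, so that its count depends on the strand setting. In APP/PS1 against WT mice the log2 fold change was 0.64 for Npc2 and -0.0082 for Npc1, and the difference between these genes was not tested.

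Soat1 (chr1:156424525-156474331, minus strand), whose enzyme makes cholesterol esters inside cells, was at 34.3 and 33.2 CPM in WT females and 36.9, 44.6 and 43.2 in WT males. APP/PS1 females were at 43.3, 48.9 and 45.2 and males at 45.3, 40.3 and 32.4, and APP/PS1/FTnKO mice lay between 36.3 and 40.5. The ranges of the 3 genotypes overlapped. The log2 fold change was 0.15 in APP/PS1 against WT mice (95% interval -0.054 to 0.35, FDR 0.512). The test of the difference of that change between the sexes gave a male-minus-female value of -0.52 (SE 0.16, p 0.00418) with an FDR of 1 over all genes.

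Lcat (chr8:105939551-105943382, minus strand), the lipoprotein esterification gene, was at 21.2 and 14.4 CPM in WT females and 16.2, 19.3 and 18.9 in WT males. APP/PS1 females were at 20.5, 19.4 and 24.7 and males at 25.4, 20.0 and 14.8, while APP/PS1/FTnKO females were at 18.3, 17.2 and 15.1 and males at 18.4, 13.5 and 18.6. Only the APP/PS1 group reached above 21.2, and every APP/PS1/FTnKO mouse was at 18.6 or below. The log2 fold change was 0.20 in APP/PS1 against WT mice (95% interval -0.074 to 0.48, FDR 0.511). In APP/PS1/FTnKO against APP/PS1 mice it was -0.30 (SE 0.13, 95% interval -0.56 to -0.039, unadjusted p 0.0267, FDR 0.358), which did not pass the test.

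Abca1 (chr4:53030787-53159895, minus strand), whose transporter loads cholesterol onto apolipoprotein E, was at 46.2 to 62.5 CPM (WT), 46.6 to 65.7 (APP/PS1) and 45.4 to 61.9 (APP/PS1/FTnKO). The groups covered the same range, and the log2 fold change in APP/PS1 against WT mice was 0.072 (95% interval -0.16 to 0.30, FDR 0.811). Abcg1 (chr17:31057675-31117988, plus strand), a transporter that works beside it, was at 78.7 to 94.0 CPM (WT), 66.2 to 86.8 (APP/PS1) and 62.1 to 84.6 (APP/PS1/FTnKO). Its log2 fold change was -0.12 in APP/PS1 against WT mice (95% interval -0.28 to 0.032, FDR 0.470). It was -0.14 in APP/PS1/FTnKO against WT mice (95% interval -0.29 to 0.020, FDR 0.294).

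Per kilobase, Nr1h2, for liver X receptor beta, was above Nr1h3, for liver X receptor alpha, in each of the 17 mice. Nr1h2 was at 51.4 to 56.2 CPM (WT), 48.2 to 61.5 (APP/PS1) and 51.1 to 64.3 (APP/PS1/FTnKO). Its log2 fold changes were 0.026 in APP/PS1 against WT mice (FDR 0.903) and, for APP/PS1/FTnKO against WT mice, 0.13 (95% interval -0.011 to 0.28, FDR 0.265). Nr1h3 was at 2.96 and 2.56 CPM in WT females and 3.90, 3.15 and 3.41 in WT males. In APP/PS1 it was at 4.65, 5.33 and 4.14 in females and 4.97, 4.05 and 2.76 in males, and in APP/PS1/FTnKO mice it lay between 2.97 and 4.55. Of the APP/PS1 mice 5 of 6 were above every WT mouse, but the log2 fold change of 0.42 (SE 0.17, 95% interval 0.056 to 0.78, unadjusted p 0.0259, FDR 0.287) did not pass the test. Nr1h2 lies on chr7:44549616-44553951 and Nr1h3 on chr2:91184061-91202834, each on the minus strand. The exons of Nr1h3 overlap those of Gm13783 on the same strand.

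Between males and females, 0 of 10 members were called by edgeR and none had an unadjusted p under 0.05, with 0.0689% of all genes called and 6.70% at such a p. DESeq2 called 0. The largest difference was that of Ch25h, a male-against-female log2 fold change of -0.52 (95% interval -1.20 to 0.17, FDR 0.834).

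Of 66 tested genes in 7 lists of the wider cholesterol pathway, edgeR called 3 in APP/PS1 against WT mice, where 1.50% of all genes were called, and 3 in APP/PS1/FTnKO against WT mice, where 3.87% were. Of 20 genes of endolysosomal and intermembrane sterol transport, Lamp2, which encodes a lysosomal membrane protein, was called in APP/PS1 against WT mice (log2 fold change 0.33, SE 0.061, FDR 0.00698), at 71.9 ± 2.07 CPM in WT (SD, n = 5) and 90.9 ± 8.49 in APP/PS1 mice (n = 6). The other 19 were not called by edgeR or DESeq2 in that comparison. Osbpl1a, an oxysterol binding protein gene, was called in APP/PS1/FTnKO against WT mice (log2 fold change -0.25, SE 0.068, FDR 0.0464), where DESeq2 also called Gramd1b lower (log2 fold change -0.25, adjusted p 0.0246) and Osbpl9 higher (0.19, adjusted p 0.0306). The median of the list was 0.020 in APP/PS1 against WT mice. With all 18 mice Lamp2 had a log2 fold change of 0.19 (FDR 0.430) and Osbpl1a -0.20 (FDR 0.194), so that their calls rest on leaving out 19622.

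Of 8 tested genes of brain lipoproteins, Clu, which encodes apolipoprotein J, and Lpl, which encodes lipoprotein lipase, were called higher against WT in APP/PS1 and in APP/PS1/FTnKO mice. Clu had a log2 fold change of 0.44 (FDR 0.0431) in the first and 0.40 (FDR 0.0397) in the second. With all 18 mice these were 0.52 (FDR 0.0396) and 0.48 (FDR 0.051), the latter no longer called. Lpl had 0.44 (FDR 0.0075) and 0.49 (FDR 0.00406). With all 18 mice Lpl had larger log2 fold changes, 0.68 (SE 0.27, FDR 0.272) and 0.72 (SE 0.27, FDR 0.159), but also a larger error, and was not called. Apoe, which encodes the main apolipoprotein of the brain and is named here after its values were seen, had a log2 fold change of 0.61 in APP/PS1 against WT mice (SE 0.15, FDR 0.056). It was called there by DESeq2 (adjusted p 0.00353) and by edgeR with all 18 mice (log2 fold change 0.67, FDR 0.0415). The list of 15 tested liver X receptor target genes also holds Lpl and Apoe, and in the genotype comparisons of 17 mice it had no calls beyond these, by edgeR (Lpl) or DESeq2 (Lpl and Apoe). Mouse 19622 was at 7.60 CPM of Lpl, below the other 17 mice. The median log2 fold change of the lipoprotein list was 0.28 in APP/PS1 against WT mice.

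None of the 6 tested oxysterol enzymes, the 6 tested genes of sterol esters and lipid droplets, the 10 efflux transporters and the 7 tested receptor partners were called by edgeR or DESeq2 in any genotype comparison. Of the 29 genes of these lists, 8 had an unadjusted edgeR p under 0.05 in APP/PS1 against WT mice, where 14.0% of all genes did. There were 2 in APP/PS1/FTnKO against APP/PS1 (11.5% of all genes) and 5 in APP/PS1/FTnKO against WT (22.1%). The smallest unadjusted p of these lists in APP/PS1 against WT mice belonged to Hsd3b7 (log2 fold change 0.50, FDR 0.467), Plin4 (1.74, FDR 0.140), Abca5 (-0.21, FDR 0.182) and Ncor1 (-0.17, FDR 0.309). Of the 66 genes, 0 were called by edgeR in APP/PS1/FTnKO against APP/PS1 mice and 8 had an unadjusted p under 0.05, against 11.5% of all genes. Among these Stard4, a sterol carrier gene, had the smallest p (log2 fold change -0.38, SE 0.11, FDR 0.155). DESeq2, which called 1.70% of its genes there, called 1 of the 66, Stard4, with an adjusted p of 0.0472. Some genes are in more than 1 list.

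Over the 17 mice, the members' levels were compared in pairs after genotype and sex had been removed. Of 45 pairs tested, 6 had an adjusted p under 0.05 for Pearson's r, and 5 of these also for Spearman's rho. These 6 had an r of 0.684 or more, and of all pairs of the 15581 genes with a mean of at least 1 CPM 3.67% had an r of that size in either direction. The pairs share genes and mice, and whether the members differ from other genes in this was not tested. The permutations treat the residuals of the 17 mice as freely exchangeable, although genotype and sex had been fitted to them. The permutation p-values can therefore be too small, and the calls are a description. The strongest was Npc2 with Lcat (r 0.773, rho 0.676, permutation p 2.4e-04 and 0.00357, adjusted 0.0108 and 0.0321), which was 0.583 without the 2 mice farthest from the median. Npc2 with Abca1 had r 0.725 and rho 0.762 (adjusted permutation p 0.0171 and 0.0228), and 0.672 without the 2 mice. Npc1 with Abca1 had r 0.684 (0.599 without them), and Nr1h2 with Lcat 0.690 (0.526). Soat1 with Nr1h3 (0.694) and Npc2 with Nr1h3 (0.684) fell to 0.374 and 0.436 without the 2 mice, and Soat1 with Nr1h3 did not pass by rho (0.574, adjusted permutation p 0.0916). Npc1 with Npc2 passed by rho (0.662, adjusted permutation p 0.0334) and not by r (0.597, adjusted permutation p 0.0592), and its r was 0.730 without the 2 mice. Cyp46a1 had no pair with an adjusted p under 0.05 by either measure, the largest in size being with Soat1 (r -0.579, adjusted permutation p 0.0620). The values of a mouse share its library and depth.

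**Figure D4:**
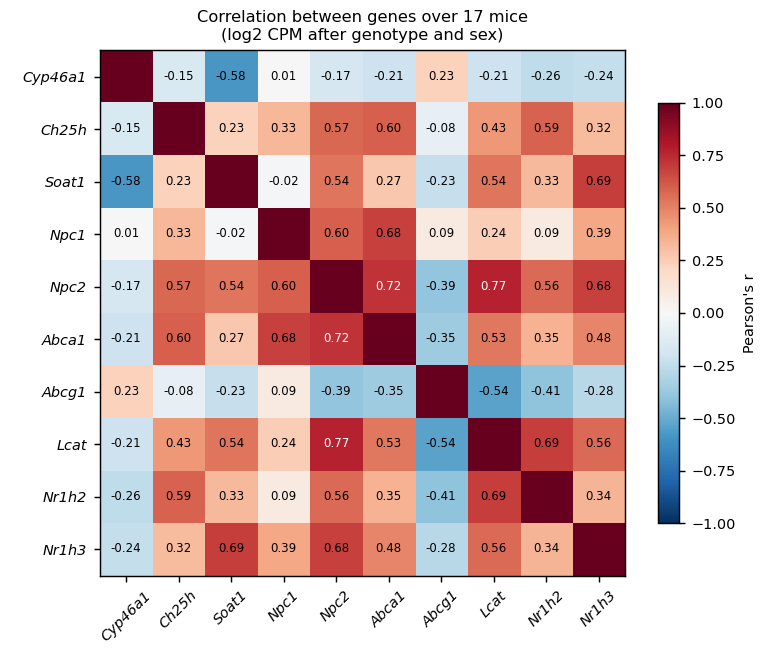
Pearson's r between the 10 genes over 17 mice, on log2 CPM after genotype and sex. Npc2 and Lcat had the highest value, 0.773, and Cyp46a1 and Soat1 the lowest, -0.579.

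Among 15580 genes with a mean of at least 1 CPM, the genes most like each member over the 17 mice were named by r of the same residuals, as a description without a p. For Npc2 they were Grn, which encodes progranulin (r 0.973), Clu (0.967) and Vim (0.954), and these are the highest values found for any member. For Lcat they were Dnase2a (0.946), Ifnar2 (0.911) and Adk (0.906), for Abca1 Eng (0.928), Wasf2 (0.911) and Rps21 (0.910), and for Npc1 Phldb1 (0.926) and Golim4 (0.914). For Abcg1 they were C2cd3 (0.913), Fndc3a (0.912) and Nfatc2 (0.903), for Nr1h2 Pisd (0.900), Sh3glb2 (0.864) and Atxn7l2 (0.863), and for Nr1h3 Frmd8 (0.887), Cda (0.851) and Apobec1 (0.829). For Ch25h they were Alg14 (0.871), Gli1 (0.861) and Gm34256 (0.855), for Soat1 Cnih4 (0.815), Med31 (0.812) and Abhd3 (0.785), and for Cyp46a1 Magoh (0.818), 1700040D17Rik (0.815) and Gm32926 (0.815). The values of Cyp46a1 and Soat1 were the lowest of the 10 members.

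The WT library 19622 lay 4.31 from the other WT libraries on average, on the scale of log2 fold changes of the 500 genes that differ most in each pair. The other 5 WT mice lay 1.92 to 2.08 from each other on average. Its level of Cyp46a1 was 37.2 CPM, 0.196 of the mean of the other 5 WT mice and below all 17 mice. Soat1, at 28.7 CPM, was also below all 17. Nr1h3 (11.1 CPM, 3.48 times the WT mean), Lcat (55.3, 3.07 times), Npc1 (109, 1.28 times), Abca1 (72.7, 1.32 times), Abcg1 (105, 1.24 times) and Nr1h2 (66.4, 1.24 times) were above all 17. The margin was narrow for Nr1h2, for which the highest of the 17 was at 64.3. Per kilobase the Lcat of 19622 (41.2) was above its Cyp46a1 (11.3), unlike in the other 17 mice. Npc2, at 79.7 CPM, was 1.52 times the WT mean and above the other 5 WT mice (51.4 to 54.3), but inside the range of the transgenic mice. Ch25h, at 0.252 CPM, was inside the WT range. Its markers of the cerebellum summed to 4257 CPM against 48.5 to 85.1 in the 17 mice, and its markers of excitatory neurons to 571 against 1672 to 2751. Its oligodendrocyte markers summed to 10919 against 3449 to 7693, those of the choroid plexus to 1347 against 3.53 to 440 and those of homeostatic microglia to 153 against 264 to 510. Its reactive astrocyte markers summed to 613 against 183 to 253 in the other WT mice, and its markers of plaque-associated microglia to 118 against 78.1 to 86.5. The part of these cells in its levels was not tested.

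**Figure D5:**
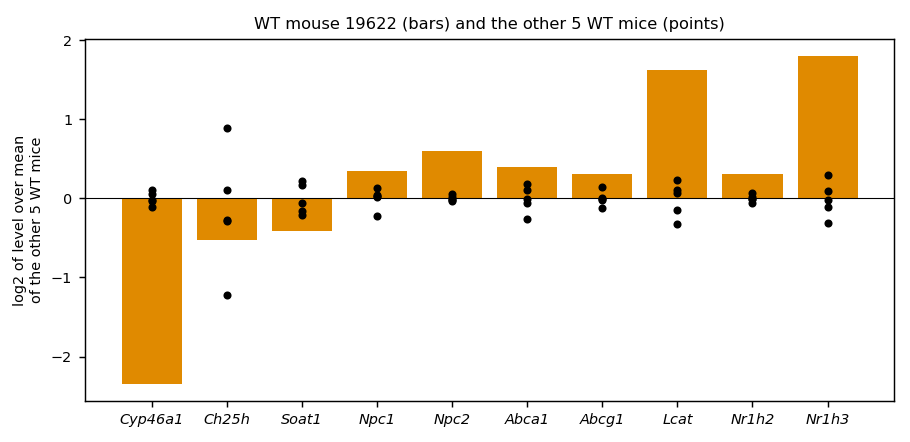
Log2 of the level in WT mouse 19622 over the mean of the other 5 WT mice (bars), with those 5 mice as points. Cyp46a1 was at -2.35, Lcat at 1.62 and Nr1h3 at 1.80, beyond every point, and 8 of the 10 genes lay outside all 17 mice.

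With all 18 mice the fold change of Npc2 in APP/PS1 against WT was 0.54 on the log2 scale with an FDR of 0.10, and Ch25h was called alone there, at 2.59 (FDR 0.00357), where 1.20% of genes were called. In APP/PS1/FTnKO against WT mice Ch25h was called at 2.19 (FDR 0.0173), with 1.51% of genes called.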

How the data were processed

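Reads of stranded mRNA libraries were trimmed (Trimmomatic 0.33), aligned to GRCm38 (Hisat2 2.1.0) and assigned to genes (featureCounts) by the authors, who deposited raw counts without normalization. For featureCounts, the version, strand setting and annotation were not given in the sources used here. GEO's labels group 18 mice by genotype, and all 18 columns were used (0 unused).

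edgeR 4.0.16 in R 4.3.3 was run on the deposited counts of 17 mice, without WT mouse 19622, with TMM, filterByExpr (minimum count 10), a quasi-likelihood F test, sex as a term and all 3 genotypes fitted together, with Benjamini-Hochberg adjustment over 17414 genes at 0.05. The script was tested on simulated data for APP/PS1 against WT mice, with 200 of 17414 genes changed. There edgeR recovered 81.0% of log2 changes of 1 and 46.0% of those of 0.5, with 4.51% of its calls false. DESeq2 recovered 85.0% and 55.0%, with 11.9% of its calls false. The study's tool, DESeq2 1.42.0, all 18 mice, RLE, no filter, a filter at 50, no sex term, only the genotypes compared, RIN as a covariate and leaving out each mouse in turn were alternatives. DESeq2 and RIN on 18 mice were added after the data had been seen. Correlations used residuals of log2 CPM (prior count 2) and 100000 permutations. Exon lengths and positions came from GENCODE vM21, which held 99.5% of the genes in the table, and windows from RefSeq.

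The members and lists were chosen with earlier results of these data known. Genes outside the members were named if called in a list or, with none called, for the smallest p, and as the 3 nearest in correlation, of which 1 is not reported here. P-values measure the spread between these mice.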

Additional observations from a re-analysis of the deposited data

How the results depend on the processing

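The number of members called in APP/PS1 against WT mice was 2, and it was 1 with all 18 mice (Ch25h), 1 with the filter at 50 (Npc2, since Ch25h was not tested under it) and 0 with RIN as a covariate, in 17 or 18 mice; with each mouse left out it ranged from 1 to 2, and Ch25h was called each time. In APP/PS1/FTnKO against WT mice it was 1, and 2 (Ch25h and Npc2) with DESeq2, without a filter and with only the genotypes compared, 0 with the filter at 50, and 0 to 2 with each mouse left out. Between the sexes and for APP/PS1/FTnKO against APP/PS1 mice the counts were 0 under every alternative run. Over all genes edgeR called 261, 57 and 674 in APP/PS1 against WT, APP/PS1/FTnKO against APP/PS1 and APP/PS1/FTnKO against WT mice, DESeq2 468, 250 and 1321, and edgeR with 18 mice 207, 2 and 261. In the same order edgeR called 84, 261 and 388 with RIN as a covariate, 452, 104 and 971 without a filter and 190, 5 and 859 with only the genotypes compared. With each mouse left out it called 124 to 465, 10 to 81 and 206 to 987, with the fewest without WT mouse 19053, APP/PS1 mouse 19554 and WT mouse 19053 and the most without APP/PS1 mouse 19744, APP/PS1 mouse 16975 and APP/PS1/FTnKO mouse 18973. Chosen after seeing the data, DESeq2 with 18 mice called 427, 35 and 878, and RIN as a covariate in 18 mice gave 68, 7 and 123. Between the sexes edgeR called 12, DESeq2 25 and edgeR without a filter 50. Members that were not called turned sign under some alternatives. In APP/PS1 against WT mice, with 18 mice Cyp46a1 was 0.22, Nr1h2 -0.028, Nr1h3 -0.039 and Lcat -0.19, and Nr1h3 was -0.24 in APP/PS1/FTnKO against WT mice. With RIN as a covariate Abca1 was -0.11 and Nr1h2 -0.015 in APP/PS1 against WT, Npc1 0.0053 in APP/PS1/FTnKO against APP/PS1 and Soat1 -0.018 in APP/PS1/FTnKO against WT mice. With each mouse left out, the values in APP/PS1 against WT mice ranged from -0.033 to 0.022 for Cyp46a1, from -0.058 to 0.024 for Npc1 and from -0.015 to 0.068 for Nr1h2. Those in APP/PS1/FTnKO against APP/PS1 mice ranged from -0.57 to 0.025 for Ch25h and from -0.050 to 0.041 for Abcg1, and those against WT mice from -0.053 to 0.069 for Soat1 and from -0.087 to 0.016 for Abca1. The causes were not tested. No paired analysis was possible because the replicate names are mouse numbers that no groups share. The low counts of Ch25h in WT mice limit the precision of its fold change.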
